A study of Mus musculus with 2 samples.

Results

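The 10 genes described here encode enzymes that modify collagen: the alpha subunits P4ha1 and P4ha2 of collagen prolyl 4-hydroxylase, the lysyl hydroxylases Plod1, Plod2 and Plod3, and the lysyl oxidases Lox, Loxl1, Loxl2, Loxl3 and Loxl4. They were taken by symbol, and all 10 were present among the 32285 gene rows of both count matrices. Their levels were measured in each cell class and, within cartilage cells, along the level of Col10a1, the collagen of hypertrophic chondrocytes.

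Collagen prolyl 4-hydroxylase hydroxylates prolines of new collagen chains in the endoplasmic reticulum, which makes the triple helix stable at body temperature. Lysyl hydroxylases modify lysines of the same chains, and some of these hydroxylysines later carry sugars or form cross-links. Lysyl oxidases act outside the cell, where they oxidise lysines and hydroxylysines of collagen and elastin so that neighbouring molecules become covalently joined. In a healing fracture this matrix is first cartilage, whose cells enlarge, switch on Col10a1 and are replaced by bone.

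The study examined the mechanosensitive channel Piezo1 in fracture repair. Callus, the tissue that bridges a broken bone, was isolated from 12-week-old male wild-type C57BL/6J mice with a pinned transverse fracture of the femur, from 5 mice on day 10 and from 5 on day 20. Dissociated cells were captured on the 10x Genomics 3′ platform (V3), which tags 1 end of each captured transcript with a unique molecular identifier (UMI). The labels title the 2 libraries MGJ and MGJ2 and give neither of them a day, so each library was described by itself and no comparison between days was made. No label ties a cell to a mouse, so each library counted as 1 sample of pooled animals. There were no replicates, no p-value was computed, and each interval below is a 95% interval that covers counting error only.

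Library MGJ held 14295 barcodes with 135304426 UMIs and MGJ2 held 8009 with 61130834. After removal of barcodes with under 200 genes, over 20% mitochondrial UMIs or a doublet call, 13320 and 7584 cells remained, and 13 of the kept barcode sequences occurred in both libraries. Clusters were named from marker lists that hold none of the 10 genes, and 18.7% of cells in MGJ and 2.12% in MGJ2 stayed unnamed. Chondrocyte-like cells numbered 3325 in MGJ and 163 in MGJ2, and all 11 cartilage markers, among them Col2a1, Acan and Sox9, were found in at least 10% of them. MGJ2 held few other stromal cells, with 21 osteoblast-like, 18 marrow-stromal-like, 7 mural-like, 4 tendon-fibroblast-like and 1 fibroblast-like cell. Its cells other than chondrocyte-like cells were therefore mostly blood cells, and its ratios of chondrocyte-like over other cells are not comparable in size with those of MGJ.

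The 10 genes lie at separate places of the mouse genome, each as a protein-coding gene of GENCODE M21 on build GRCm38. The prolyl 4-hydroxylase genes were P4ha1 at chr10:59323296-59373304 and P4ha2 at chr11:54100095-54131665, both on the plus strand. Plod1 lies at chr4:147909753-147936767 (minus strand), Plod2 at chr9:92542223-92608428 and Plod3 at chr5:136987019-136996648 (both plus strand). Of the lysyl oxidases, Loxl1 lies at chr9:58287738-58313186 and Loxl4 at chr19:42593982-42612813 on the minus strand, and Loxl2 at chr14:69609068-69695834 and Loxl3 at chr6:83034173-83052562 on the plus strand. The position of Lox is not reported here.

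The 250 bases before the RefSeq start (GRCm38.p6) are shown for P4ha1 and P4ha2, which were both highest in the same cartilage cluster described below, and for Loxl4, the gene of the 10 with the largest ratio of cartilage cells over other cells. Capitals mark ACGTG and GCGTG, the core of the element bound by hypoxia-inducible factors, and TGTGGT, the core bound by RUNX factors, on either strand. The P4ha1 window is chr10:59323046-59323295, the P4ha2 window chr11:54100674-54100923 and the Loxl4 window chr19:42612807-42613056, the last given on the minus strand. The P4ha2 window lies inside the GENCODE span of that gene given above, because the RefSeq start used lies further in.
P4ha1: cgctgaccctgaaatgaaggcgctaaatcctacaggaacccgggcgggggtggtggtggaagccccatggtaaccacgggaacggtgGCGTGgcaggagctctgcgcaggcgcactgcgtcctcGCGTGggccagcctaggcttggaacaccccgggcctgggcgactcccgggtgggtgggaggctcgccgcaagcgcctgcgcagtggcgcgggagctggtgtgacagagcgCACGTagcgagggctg
P4ha2: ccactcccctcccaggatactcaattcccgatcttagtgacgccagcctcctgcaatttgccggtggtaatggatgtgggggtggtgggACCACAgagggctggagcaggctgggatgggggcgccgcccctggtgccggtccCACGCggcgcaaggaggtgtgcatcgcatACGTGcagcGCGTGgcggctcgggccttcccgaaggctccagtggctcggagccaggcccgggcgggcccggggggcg
Loxl4: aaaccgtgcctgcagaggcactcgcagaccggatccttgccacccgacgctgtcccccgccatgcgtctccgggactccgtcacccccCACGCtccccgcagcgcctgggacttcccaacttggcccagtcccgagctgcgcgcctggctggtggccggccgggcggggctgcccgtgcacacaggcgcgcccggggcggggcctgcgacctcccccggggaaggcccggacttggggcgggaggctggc
The P4ha1 window held 1 ACGTG and 2 GCGTG, and the P4ha2 window held 1 ACGTG, 2 GCGTG and 1 TGTGGT. The Loxl4 window held 1 GCGTG. Of 32851 mouse promoter windows of the same length, 16.6% held ACGTG, 28.2% held GCGTG and 14.05% held TGTGGT. G and C made up 69.6% of the P4ha1, 70% of the P4ha2 and 76% of the Loxl4 window, and the shares over all windows were not matched for this. The AP-1 motif, TGANTCA, was also searched, was in 6.75% of windows and was in none of these 3. Windows of this kind were found for 5 of the 10 genes. The other two were those of Plod1, with 0 ACGTG and 1 GCGTG, and of Plod3, with 1 ACGTG and 3 GCGTG, the most of the 5. Plod1 was also highest in that cartilage cluster, and Plod3 was not.

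The prolyl 4-hydroxylase subunits were expressed by all stromal classes, and P4ha2 was the more cartilage-bound of the pair. Levels are given as UMIs per 1000000 UMIs, both summed over the cells of a class (CPM), and classes of at least 50 cells were compared, 18 in MGJ and 13 in MGJ2. P4ha1 stood at 283 CPM (253 to 315) in osteoblast-like and 255 CPM (252 to 259) in chondrocyte-like cells of MGJ, which did not differ beyond counting error (ratio 1.11, 0.991 to 1.24). Tendon-fibroblast-like cells followed with 182 CPM, fibroblast-like cells with 127, mural-like cells with 109 and macrophage-like cells with 81.0. P4ha2 was highest in chondrocyte-like cells, at 325 CPM (320 to 329), 1.34-fold (1.28 to 1.40) above tendon-fibroblast-like cells at 243. It was 8.11 CPM (6.37 to 10.2) in macrophage-like and 4.97 (2.57 to 8.68) in osteoclast-like cells, where P4ha1 was 39.3.

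In MGJ2 both subunits stood at 196 CPM in chondrocyte-like cells. P4ha1 was then 48.5 CPM in endothelial-like and 46.7 in monocyte-like cells, neighbours that did not differ beyond counting error (ratio 1.04, 0.638 to 1.60). P4ha2 was 23.1 CPM in endothelial-like cells, 0.365 in monocyte-like cells and 0 in 61 osteoclast-like cells, where a count of 0 allows up to 1.40 CPM. The 21 osteoblast-like cells of MGJ2, outside this order, had 231 CPM (191 to 277) of P4ha1 and 182 (147 to 223) of P4ha2. Of all UMIs of the pair, P4ha1 took 44.0% in chondrocyte-like cells of MGJ, 90.9% in macrophage-like cells and 86.7% in monocyte-like cells. The monocyte-like share in MGJ2 was 99.2%.

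Plod2, the lysyl hydroxylase that acts on the ends of collagen chains, was the cartilage-rich member of its family. It reached 959 CPM (952 to 966) in chondrocyte-like cells of MGJ, 1.33-fold (1.29 to 1.36) above tendon-fibroblast-like cells at 723, and osteoblast-like and fibroblast-like cells followed at 466 and 400. In MGJ2 its level in chondrocyte-like cells was 853 CPM (825 to 881), against 30.01 in endothelial-like cells. The 21 osteoblast-like cells of MGJ2, too few to enter the order, had as much Plod2, at 854 CPM (775 to 938). Plod1, which hydroxylates lysines within the helix, ordered the classes differently. In MGJ it was 120 CPM in chondrocyte-like, 112 in tendon-fibroblast-like and 109 in endothelial-like cells, and the last 2 did not differ beyond counting error (ratio 1.03, 0.907 to 1.18). In MGJ2 endothelial-like cells led, with 155 CPM (120 to 196) from 50 cells, 1.71-fold (1.30 to 2.22) above chondrocyte-like cells at 90.5.

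Plod3, which also adds sugars to hydroxylysine, was the most even of the family. It was highest in tendon-fibroblast-like cells of MGJ at 169 CPM, 1.38-fold (1.31 to 1.46) above chondrocyte-like cells at 122, which did not differ beyond counting error from fibroblast-like cells at 116 (ratio 1.06, 0.993 to 1.13). In MGJ2 the order was chondrocyte-like cells at 79.7 CPM, monocyte-like cells at 68.8 and myeloid-progenitor-like cells at 58.7. Because each UMI stands for 1 captured transcript end, counts of paralogues were added without a length correction, although capture may differ between genes. On that scale Plod2 made up 79.8% of the family's UMIs in chondrocyte-like cells of MGJ and 83.4% in those of MGJ2. Endothelial-like cells had Plod1 as the largest share, 51.7% in MGJ and 63.8% in MGJ2, and in monocyte-like cells the largest share was Plod3, at 51.3% and 73.7%.

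**Figure D1:**
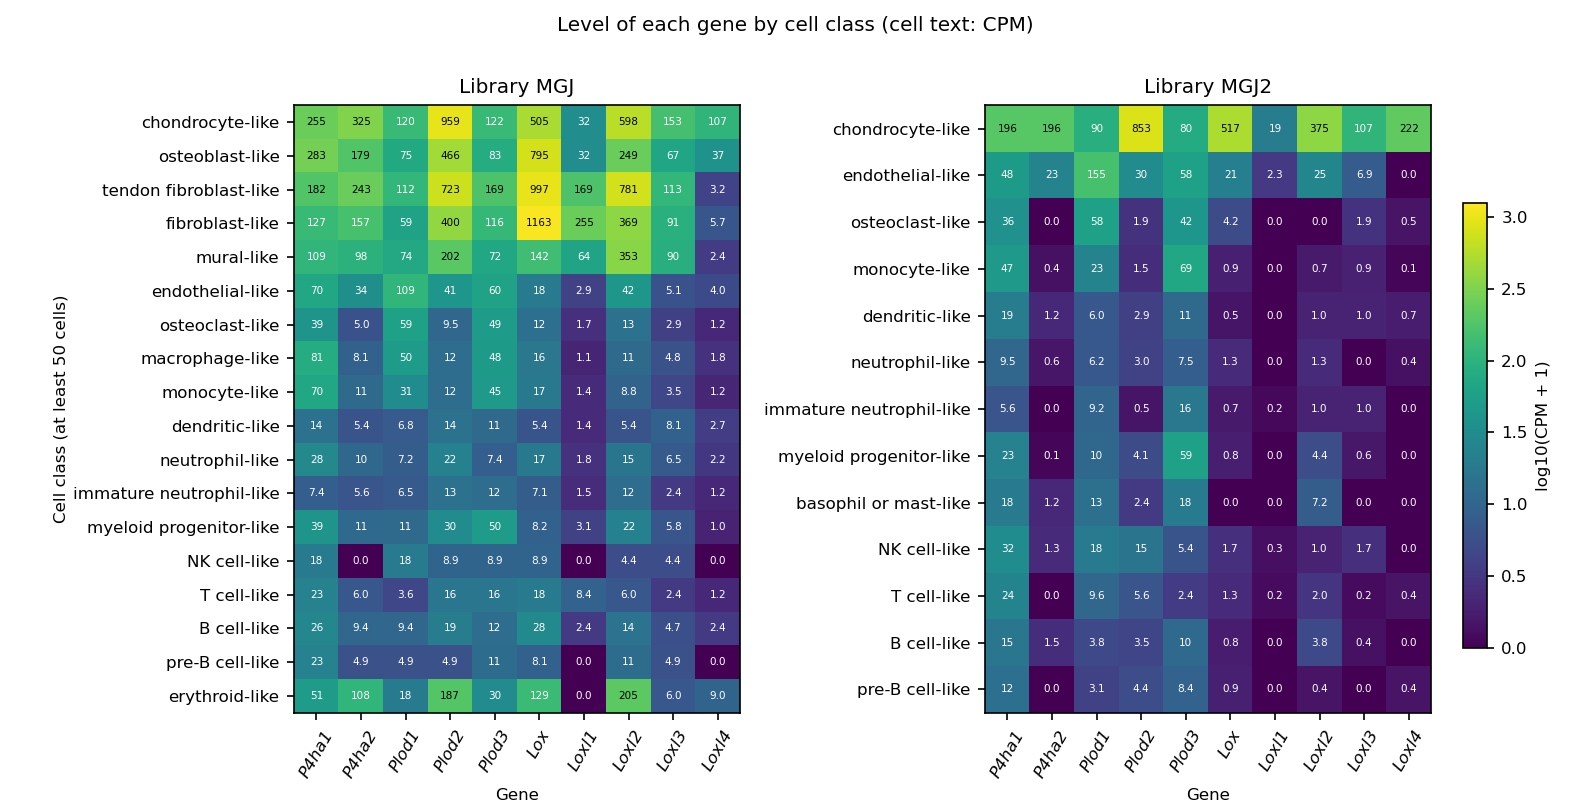
Level of each of the 10 genes (columns) in each class of at least 50 cells (rows) of library MGJ (left) and MGJ2 (right), as CPM in the cell text and log10(CPM + 1) in colour. Chondrocyte-like cells are in the top row, where Plod2 reads 959 and 853 CPM, and the fibroblast-like row of MGJ holds the highest Lox and Loxl1.

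The lysyl oxidases split into genes of fibroblasts and genes of cartilage. Lox was highest in fibroblast-like cells of MGJ at 1163 CPM (1140 to 1186), followed by tendon-fibroblast-like cells at 997, osteoblast-like cells at 795 and chondrocyte-like cells at 505. Each of these 4 levels differed from the next beyond counting error. Loxl1, known for its part in elastic fibres, had the same leading pair, with 255 CPM in fibroblast-like and 169 in tendon-fibroblast-like cells, and mural-like cells followed at 63.5. Chondrocyte-like cells had 32.2 CPM and osteoblast-like cells 31.8, which did not differ beyond counting error (ratio 1.01, 0.732 to 1.44).

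Loxl2, which also cross-links collagen IV of basement membranes, was shared between tendon-fibroblast-like cells at 781 CPM and chondrocyte-like cells at 598 in MGJ, a ratio of 1.31 (1.27 to 1.34). Fibroblast-like and mural-like cells had 369 and 353 CPM, a ratio of 1.04 (0.944 to 1.16). Loxl3 was highest in chondrocyte-like cells at 153 CPM, 1.36-fold (1.28 to 1.45) above tendon-fibroblast-like cells at 113. Loxl4 had the steepest order of the 10 genes: 107 CPM in chondrocyte-like cells, 37.0 in osteoblast-like cells and 9.03 or less in the other 16 classes of MGJ. Osteoblast-like cells also carried 12969 CPM of Col2a1, against 48554 in chondrocyte-like cells, and the part of cartilage transcripts in their Loxl4 was not tested.

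In MGJ2 all 5 lysyl oxidases were highest in chondrocyte-like cells, at 517 CPM for Lox, 19.0 for Loxl1, 375 for Loxl2, 107 for Loxl3 and 222 for Loxl4. The 21 osteoblast-like cells of that library, too few to enter the order of classes, had more Lox, at 1170 CPM (1078 to 1268), and more Loxl3, at 178 (143 to 219). They had less Loxl4, at 98.8 CPM (73.3 to 130). These cells held 31796 CPM of Col2a1, so they were not free of cartilage transcripts either.

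Free RNA in the droplets was read from neutrophil-like cells, which are no source of collagen. For shares of cells with a UMI, every cell was thinned to 2000 UMIs, which left 3224 chondrocyte-like and 1045 neutrophil-like cells of MGJ and 146 and 1389 of MGJ2. Median depths before thinning were 20438 and 2033 UMIs in MGJ and 26003 and 2350 in MGJ2. A Plod2 UMI was then seen in 75.9% of chondrocyte-like and 3.45% of neutrophil-like cells of MGJ, and in 65.1% and 0.648% of those of MGJ2. For Loxl4 the shares were 15.04% (13.8 to 16.3) and 0.574% in MGJ, and 30.8% and 0 of 1389 cells in MGJ2, which allows a share of up to 0.216%. Counts set against Col2a1 were taken from all cells of both classes, without thinning. Per 1000 UMIs of Col2a1, Loxl4 counted 2.74 in neutrophil-like and 2.195 in chondrocyte-like cells of MGJ, whereas P4ha1 counted 35.1 and 5.26. If all neutrophil-like counts came with the free Col2a1, 8.82 UMIs of Loxl4, 79.3 of Plod2 and 26.9 of P4ha2 would be there, and 11, 114 and 52 were counted. For P4ha1 the figures were 21.1 and 141, so its counts in these cells were well above that background. The genes not yet named were above it too, among them Plod1 (9.95 and 37), Plod3 (10.1 and 38), Loxl3 (12.7 and 33) and Lox (41.8 and 86). In MGJ2 the figures were 2.23 and 51 for P4ha1, 0.904 and 40 for Plod3 and 1.03 and 33 for Plod1. Loxl1, Loxl3 and Loxl4 were not above the background in MGJ2. Erythroid-like cells of MGJ, with 187 CPM of Plod2 and 205 of Loxl2, also held 5330 CPM of Col2a1. Only 6.67% of these 75 cells had a Plod2 UMI and 4% a Loxl2 UMI, so a few cells carried these levels. How the transcripts came to be in those cells was not tested.

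Set against all other cells of its library, the chondrocyte-like class was higher for nearly all 10 genes. In MGJ, 9 of 10 were at least 1.5-fold higher and 1 was at least 1.5-fold lower, where 24.3% of the 14737 genes with at least 50 UMIs were higher and 32.6% lower. In MGJ2 all 10 were at least 1.5-fold higher, against 26.5% of 13067 genes, and none was lower, against 42%. The median ratio of the 10 was 3.05 in MGJ and 33.6 in MGJ2, with 0.927 and 0.803 over all genes counted. Loxl4 had the largest ratio in both libraries, 29.2 (25.6 to 33.4) and 184 (143 to 241). Plod2 stood at 5.15 (5.05 to 5.25) in MGJ, P4ha2 at 4.63 (4.48 to 4.78) and Loxl3 at 4.36 (4.16 to 4.56). Loxl1 was the gene that was lower in MGJ, with 0.514 (0.488 to 0.542). With each cell weighted equally its ratio there was 1.41, so its direction rests on how cells are averaged. That weighting moved 8 of the 10 ratios of MGJ and 6 of those of MGJ2 by over 1.5 times, Lox in MGJ from 1.51 to 3.74. Loxl4 in MGJ was 16.04 at Leiden resolution 2 and 16.9 with doublets kept. In MGJ2 it was 111 at resolution 2, 308 with at most 10% mitochondrial UMIs and 278 with each cell weighted equally. The mitochondrial limit moved 5 of the 10 ratios of MGJ2 by over 1.5 times and none of those of MGJ.

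The genes divided once only stromal classes stood on the other side. This second comparison, chosen after the first was seen, set chondrocyte-like cells against the 1263 osteoblast-like, fibroblast-like, tendon-fibroblast-like and mural-like cells of MGJ. Besides blood cells it left out marrow-stromal-like cells (5 in MGJ and 18 in MGJ2) and endothelial-like cells (277 and 50). Then 5 of the 10 genes were at least 1.5-fold higher and 2 at least 1.5-fold lower, where 18.8% and 27.2% of all genes were. Loxl4 had the largest ratio at 17.2 (14.4 to 20.7), from 107 against 6.19 CPM, and Plod2 (1.79, 1.75 to 1.82), P4ha2 (1.68, 1.62 to 1.74), P4ha1 (1.60, 1.54 to 1.66) and Loxl3 (1.54, 1.47 to 1.62) followed. Plod1 at 1.42 (1.35 to 1.49) and Loxl2 at 1.09 (1.07 to 1.12) were short of that fold.

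Plod3 was close to even at 0.906 (0.868 to 0.947). Lox was lower in cartilage, at 505 against 1005 CPM (ratio 0.502, 0.494 to 0.511), and Loxl1 was lower still, at 32.2 against 192 CPM (0.168, 0.159 to 0.177). The 33 such cells of MGJ2 gave the same order at its ends, with Loxl4 at 3.08 (2.33 to 4.17), Lox at 0.506 (0.465 to 0.551) and Loxl1 at 0.280 (0.193 to 0.408). Loxl3 was 0.682 (0.553 to 0.847) there, opposite to MGJ. In that library 1 of 10 genes was at least 1.5-fold higher and 2 lower, against 15.7% and 18.4% of all genes, and 21 of the 33 cells were the osteoblast-like cells rich in Col2a1.

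**Figure D2:**
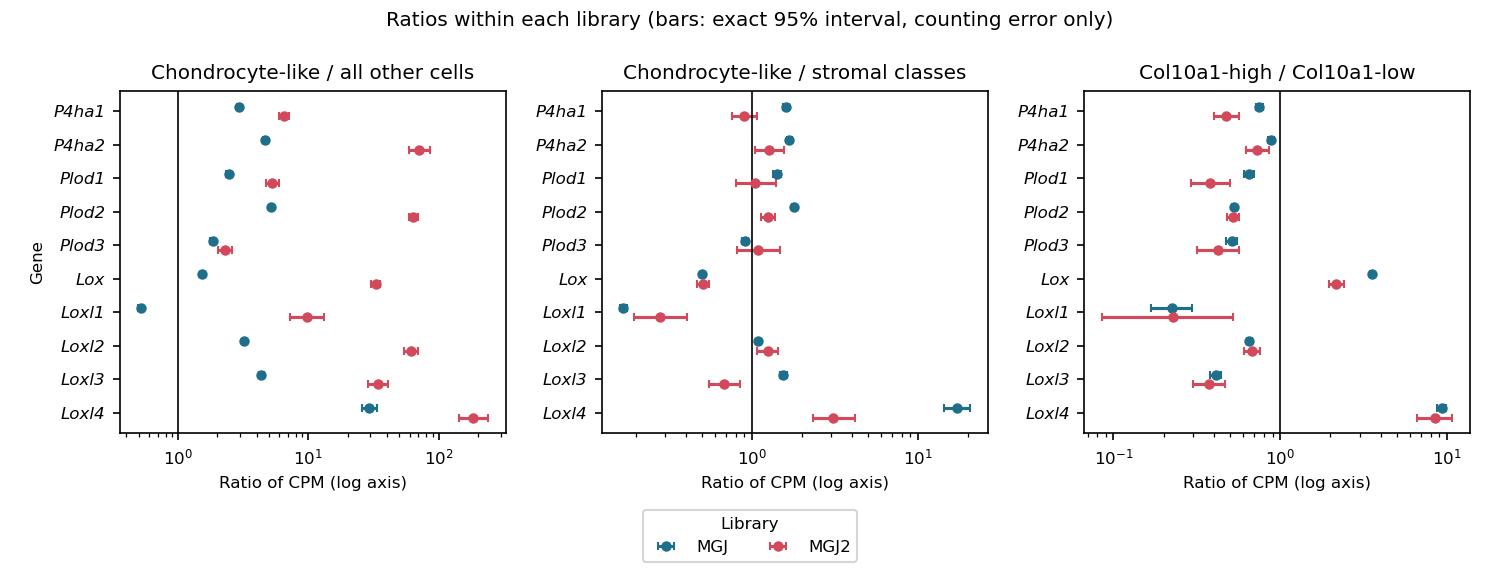
Ratio of CPM for each gene in library MGJ (blue) and MGJ2 (red), on a log axis with exact 95% intervals, for chondrocyte-like over all other cells (left), over stromal classes (middle) and for Col10a1-high over Col10a1-low cartilage cells (right). Loxl4 is to the right of the line at 1 in all 3 panels, and Lox crosses from left to right between the middle and the right panel.

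The second axis of the comparison was maturation within cartilage. Cells with at least 10000 CPM of Col2a1 and at least 2000 UMIs numbered 2805 in MGJ, of which 97.3% were chondrocyte-like, and 122 in MGJ2, of which 89.3% were. Those with at least 10000 CPM of Col10a1 were called Col10a1-high (491 and 45 cells) and those under 1000 CPM Col10a1-low (1928 and 56 cells). Lox and Loxl4 were higher in Col10a1-high cells of both libraries, and the ratios of the other 8 genes were all below 1. The median ratio over all genes counted was itself below 1, at 0.935 in MGJ and 0.947 in MGJ2, so a ratio below 1 was common. In MGJ, 2 of 10 genes were at least 1.5-fold higher and 6 at least 1.5-fold lower, where 14.8% and 22.4% of 12371 genes were. In MGJ2, 2 of the 9 genes with at least 50 UMIs were higher and 5 lower, against 14.5% and 20.7% of 5701 genes, and Loxl1 had too few UMIs to be counted.

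Loxl4 stood at 364 CPM (352 to 375) in Col10a1-high and 39.1 (37.2 to 41.1) in Col10a1-low cells of MGJ, a ratio of 9.30 (8.77 to 9.86). In MGJ2 the levels were 414 (382 to 449) and 49.1 (38.9 to 61.2), a ratio of 8.43 (6.66 to 10.8). Lox stood at 944 and 264 CPM in MGJ (3.58, 3.48 to 3.67) and at 774 and 357 in MGJ2 (2.17, 1.96 to 2.40). In MGJ2 these ratios moved with the choice of cells: 3.70 for Lox and 14.8 for Loxl4 when low meant under 300 CPM of Col10a1, and 3.57 for Lox when cells outside the chondrocyte-like clusters were left out. Both ratios stayed above 1 under all 12 alternatives in each library.

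In finer bins of Col10a1 both genes were higher in each bin of MGJ than in the bin before. With bounds at 300, 1000, 3000 and 10000 CPM of Col10a1, Lox read 229, 520, 680, 821 and 944 CPM, and no interval overlapped the next. Loxl4 read 33.2, 82.1, 119, 172 and 364 CPM, also without overlap. In MGJ2 the lowest and highest bins, with 43 and 45 cells, gave 209 and 774 CPM for Lox and 28.1 and 414 for Loxl4. The 3 bins between them held 13, 7 and 14 cells, and Lox went to 759, 315 and 592 CPM there, with no steady order. Median depth in the MGJ bins lay between 20613 and 24918 UMIs, and the median mitochondrial share went from 3.84% in the lowest to 2.94% in the highest.

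The bins followed other hypertrophy genes too, as their choice by Col10a1 implies. In MGJ, Ihh, the hedgehog ligand of prehypertrophic cells, was 17.9 CPM in the lowest and 221 in the highest bin, and Ibsp, a mineral-binding protein, was 1251 and 11468. Bglap, the osteoblast marker, was 5.87 and 47.7 CPM, and its part in the levels of Lox and Loxl4 was not tested. Top2a, a gene of dividing cells, was 36.8 and 2.97 CPM, and without any cell that held a Top2a UMI the MGJ ratios were 3.57 for Lox and 9.06 for Loxl4.

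The hydroxylases were lower in Col10a1-high cells. Plod2 was 589 CPM in Col10a1-high and 1121 in Col10a1-low cells of MGJ (0.526, 0.512 to 0.540), and 627 against 1203 in MGJ2 (0.521, 0.481 to 0.564). Plod3 was 0.512 (0.475 to 0.553) and 0.424 (0.316 to 0.564) of its level in Col10a1-low cells, and Plod1 was 0.648 (0.603 to 0.695) and 0.382 (0.290 to 0.498). For the prolyl 4-hydroxylase subunits the ratios were, in MGJ and MGJ2, P4ha1 at 0.751 (0.717 to 0.786) and 0.475 (0.398 to 0.564) and P4ha2 at 0.878 (0.845 to 0.913) and 0.729 (0.623 to 0.853). The P4ha2 ratio of MGJ was close to the median over all genes, 0.935, and lay between 0.776 and 0.997 under the alternatives. P4ha2 was highest between the ends in MGJ, with 314, 427, 445, 460 and 288 CPM from the lowest to the highest bin. Plod2 read 1114, 1170, 1095, 976 and 589 CPM, so most of the difference lay above 3000 CPM of Col10a1.

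The other 3 lysyl oxidases were also lower in Col10a1-high cells. Loxl3 was 73.6 against 180 CPM in MGJ (0.409, 0.380 to 0.441) and 78.3 against 208 in MGJ2 (0.376, 0.301 to 0.466), and 0.203 in MGJ when high meant at least 20000 CPM of Col10a1. Loxl2 was 416 against 636 CPM in MGJ (0.654, 0.633 to 0.675) and 339 against 499 in MGJ2 (0.678, 0.605 to 0.760). Loxl1 was 4.92 against 21.8 CPM in MGJ (0.225, 0.167 to 0.297), and 7 against 34 UMIs in MGJ2.

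**Figure D3:**
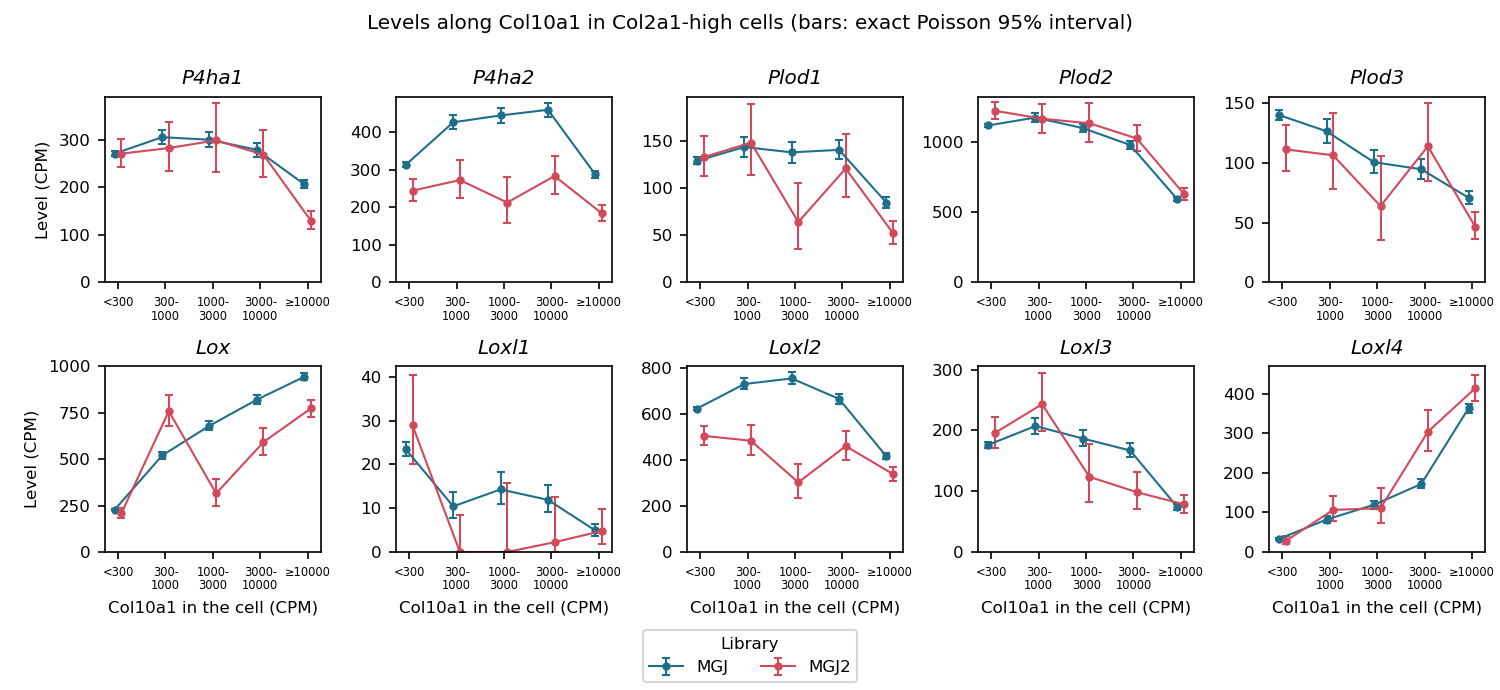
Level (CPM, axis from 0) of each gene in Col2a1-high cells along 5 bins of the Col10a1 level of the cell, for MGJ (blue) and MGJ2 (red), with exact Poisson 95% intervals. In MGJ, Lox reads 229 CPM in the lowest and 944 in the highest bin and Loxl4 33.2 and 364, whereas Plod2 reads 1114 and 589.

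The make-up of the lysyl oxidase family differed more along this axis than that of the hydroxylase families. In Col10a1-low cells of MGJ, Loxl2 supplied 55.8% of the family's UMIs, Lox 23.1%, Loxl3 15.8%, Loxl4 3.43% and Loxl1 1.91%. In Col10a1-high cells Lox supplied 52.4% (51.7 to 53.1), Loxl2 23.1%, Loxl4 20.2% (19.6 to 20.7), Loxl3 4.09% and Loxl1 0.273%. In MGJ2 the share of Lox was 31.5% in Col10a1-low and 48.1% in Col10a1-high cells, that of Loxl4 4.33% and 25.7%, and that of Loxl2 44.0% and 21.0%. The Plod2 share was 80.6% and 79.1% in MGJ and 83.0% and 86.4% in MGJ2. The P4ha2 share was 54.4% and 58.3% in MGJ and 48.0% and 58.6% in MGJ2. Osteoblast-like cells of MGJ had a Lox share of 67.4% and a Loxl4 share of 3.14%, and fibroblast-like cells had the largest Loxl1 share of the 13 classes of MGJ compared, 13.5%.

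**Figure D4:**
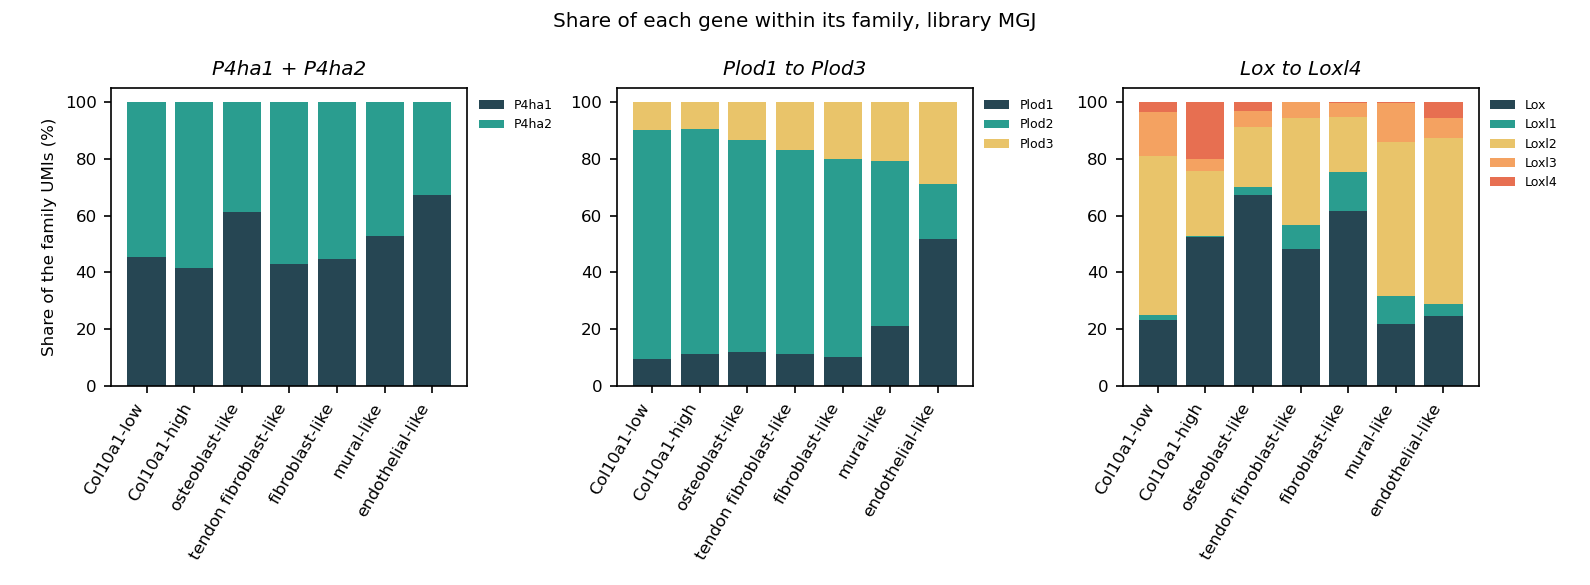
Share (%) of each paralogue among the UMIs of its family in library MGJ, for Col10a1-low and Col10a1-high cartilage cells and 5 other classes, as stacked bars from 0 to 100. The Lox family panel shows Lox at 23.1% and 52.4% and Loxl4 at 3.43% and 20.2% in the first 2 bars, and the Plod panel shows Plod1 at 51.7% in endothelial-like cells.

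The chondrocyte-like class of MGJ was made of 11 clusters. Several of the 10 genes peaked in the same cluster, described below, and the others peaked elsewhere. Of these clusters, 10 held at least 50 cells and 3276 of the 3325 cells. The other 49 cells, led by Chil1 and Hp, had no gene of the 10 at its highest, and their Loxl4 was 8.76 CPM (4.004 to 16.6). These are descriptions, since the clusters were drawn on the same cells, although the 10 genes took no part in the clustering. Loxl4 was highest, at 369 CPM, in the 537 cells led by Col10a1, Aldh1a3 and Ibsp, where it was itself among the 4 leading genes, and the next cluster had 135. The same cluster of MGJ2, with 67 cells, had 390 CPM of Loxl4 and 839 of Lox. Loxl1 was highest in the 263 dividing cells led by Ube2c and Cdk1, at 99.6 CPM, and was 4.24 CPM in the Col10a1-led cluster.

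A cluster of 180 cells led by Nrn1 and Chrdl2, singled out after its values were seen, held the highest levels of P4ha1, P4ha2, Plod1, Plod2, Lox and Loxl2 among the 11. P4ha2 read 788 CPM there against 301 in the other 3145 chondrocyte-like cells (2.62, 2.51 to 2.73), and Lox 1090.0 against 475 (2.29, 2.22 to 2.37). Plod1 was 2.11-fold, Loxl2 1.96-fold, Plod2 1.77-fold and P4ha1 1.75-fold higher. Loxl4 was lower, at 38.3 against 110.0 CPM (0.348, 0.289 to 0.415), and so was Loxl1 (0.236, 0.154 to 0.347). Neither low level was particular to the cluster led by Nrn1. Loxl4 was 39.4 CPM in the cluster led by Lif, 22.2 in the dividing cells and 17.8 in the cluster led by Sbsn. Loxl1 was 4.24 CPM in the Col10a1-led cluster and 7.07 in the one led by Nos2. In all, 6 of the 10 genes were at least 1.5-fold higher and 2 lower, where 9.58% and 25.8% of 13020 genes were. The cluster was chosen for its levels of these same genes, so that count only describes it. MGJ2 had 1 cell in this cluster, so nothing here could be repeated there.

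Of 12 genes of the hypoxia response, 9 were at least 1.5-fold higher in the Nrn1-led cluster and 1 lower, with a median ratio of 2.05. These genes were kept out of the clustering too, but this does not make the cluster independent of them, and Bnip3 was among its leading genes. Ankrd37, 1 of the 9, had 15 UMIs in the cluster and a ratio of 1.60 with an interval that spans 1 (0.879 to 2.71). Car9, a carbonic anhydrase, was 9.14-fold higher, the largest of the list. Bnip3, a mitophagy receptor, at 5.00-fold and Ldha, a glycolytic enzyme, at 2.66-fold were picked after their values were seen. Slc2a1, the glucose transporter, was 1.40-fold higher and Vegfa, the angiogenic factor, was 0.865-fold, with Ndrg1 the smallest at 0.617. P4ha1, P4ha2, Plod2 and Lox are textbook targets of hypoxia-inducible factors. Whether these factors had a part in the levels of this cluster was not tested. The 13 partners of collagen processing in the endoplasmic reticulum had a median of 1.05 in the same cluster, with 2 higher and 1 lower. P3h2 was the largest of them at 2.58 and P4ha3 the smallest at 0.264, and P4hb was 1.33 and Serpinh1 0.852. Of the substrates 2 were higher and 2 lower, from Col4a1 at 0.113 to Eln at 9.06, with Col1a1 at 0.696. Of the genes that process collagen outside the cell 1 was higher and 4 lower, from Adamts2 at 0.207 to Fn1 at 2.199.

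**Figure D5:**
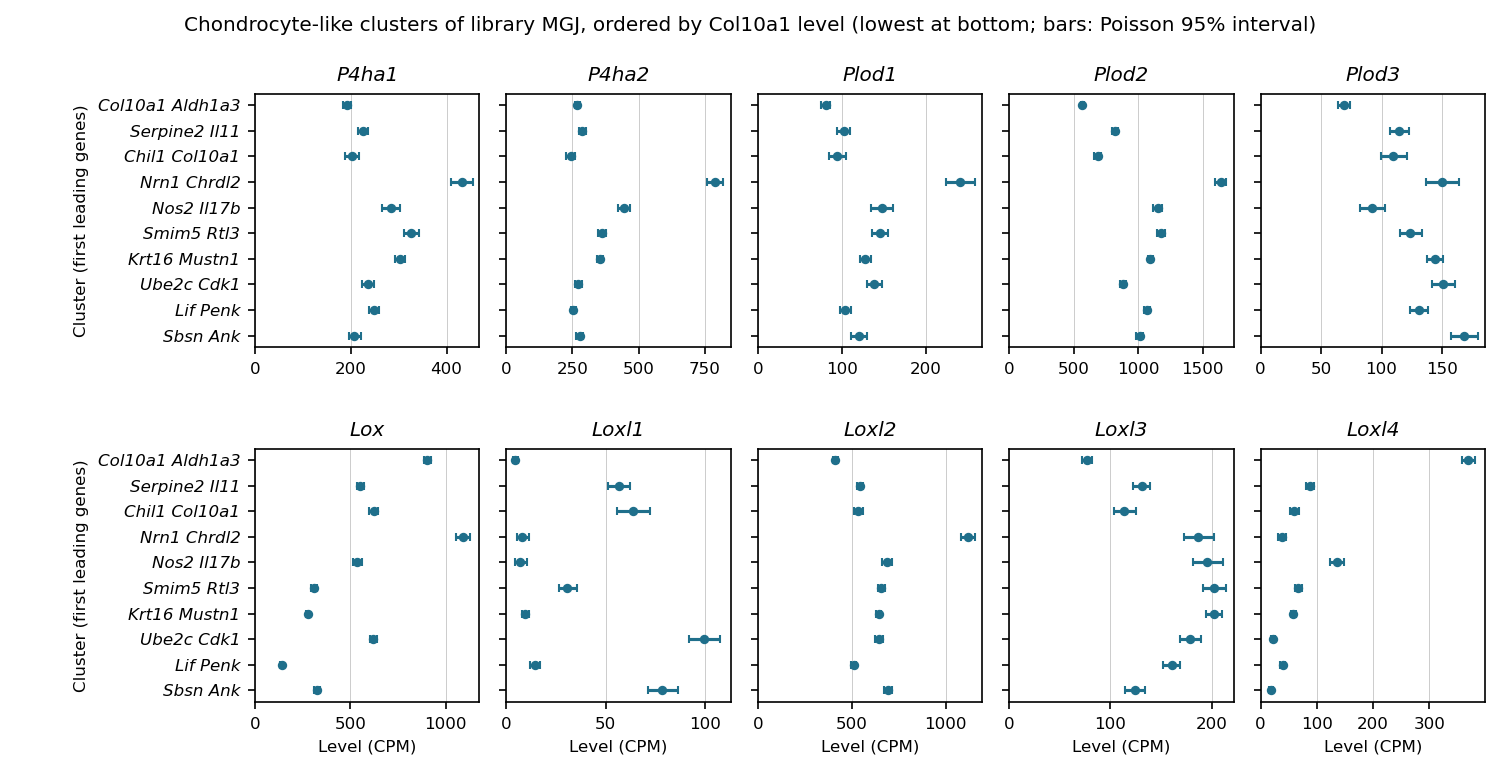
Level (CPM, axis from 0, Poisson 95% intervals) of each gene in the 10 chondrocyte-like clusters of library MGJ with at least 50 cells (1 cluster of 49 cells is not drawn), ordered from the lowest Col10a1 level (bottom) to the highest (top) and named by their first 2 leading genes. The Nrn1 row stands to the right for P4ha2 (788 CPM) and Lox (1090.0), and the top row for Loxl4 (369).

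The partners of the hydroxylases in the endoplasmic reticulum were read from a list of 13 genes. In chondrocyte-like over other cells, 12 of 13 were at least 1.5-fold higher in MGJ and 13 of 13 in MGJ2, with medians of 3.04 and 31.4. P4hb, the beta subunit that the collagen prolyl 4-hydroxylases share, was 2.02 and 2.92, and Serpinh1, the collagen chaperone HSP47, was 2.59 and 33.9. P3h2, a prolyl 3-hydroxylase, had the largest ratio in both, 14.5 and 111. P4ha3, the remaining alpha subunit, had the smallest in MGJ, 0.675, from 20.0 against 29.7 CPM. In Col10a1-high over Col10a1-low cells, 0 of 13 were at least 1.5-fold higher and 8 lower in MGJ, and 0 higher and 10 lower of the 12 counted in MGJ2, with medians of 0.627 and 0.428. There P4hb was 0.682 and 0.577 and Serpinh1 0.556 and 0.399. P4ha3 was the smallest in MGJ at 0.170, and Colgalt1, a collagen galactosyltransferase, in MGJ2 at 0.302. Its paralogue Colgalt2 was the largest in both, 1.36 and 1.001.

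Genes that process collagen outside the cell were mixed. Of 12, 7 were higher and 2 lower in chondrocyte-like cells of MGJ (median 2.02), and of the 11 counted in MGJ2, 9 were higher and 1 lower (median 18.9). Pcolce2, an enhancer of procollagen C-proteinase, had the largest ratio in both, 18.9 and 217, and also in Col10a1-high over Col10a1-low cells, with 4.29 and 2.64. Adamts2, a procollagen N-proteinase, was the smallest in chondrocyte-like cells of MGJ at 0.360, and Tgm2, a transglutaminase, in those of MGJ2 at 0.575. Pcolce, the paralogue of Pcolce2, was the smallest in Col10a1-high cells, 0.227 and 0.183. The counts there were 2 higher and 5 lower of 12 in MGJ and 2 higher and 3 lower of 8 in MGJ2.

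Of 10 substrate genes, 3 were higher and 4 lower in chondrocyte-like cells of MGJ (median 0.941), and 8 higher and 2 lower in MGJ2 (median 16.4). Col11a2, a cartilage fibril collagen, had the largest ratio in MGJ, 21.2, and Col11a1 in MGJ2, 136. Col4a2, a basement membrane collagen, was the smallest in both, at 0.0846 and 0.452. Col1a1 was 0.941 in MGJ and 8.47 in MGJ2. In Col10a1-high over Col10a1-low cells 1 was higher and 4 lower of 10 in MGJ, and 7 of 7 counted were lower in MGJ2. Col1a1 was 0.392 and 0.313 there, the former the smallest of MGJ, and Eln, the elastin gene, was the largest in MGJ at 2.45. In MGJ2 Col5a1 was the smallest at 0.282 and Col5a2 the largest at 0.561.

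The hypoxia list had 5 higher and 4 lower of 12 in chondrocyte-like cells of MGJ (median 1.43) and 6 higher and 3 lower of 11 in MGJ2 (median 1.502). Car9 had the largest ratio in MGJ, 6.07, and Bnip3 in MGJ2, 19.0, and Mxi1 the smallest in both, 0.198 and 0.229. Vegfa was 2.12 and 3.14, and Slc2a1 1.08 and 2.67. In Col10a1-high over Col10a1-low cells the counts were 3 higher and 4 lower of 12 in MGJ (median 0.901) and 3 higher and none lower of 8 in MGJ2 (median 0.897). Vegfa was 1.29 and 1.90 there and Slc2a1 1.30 and 1.73. Adm, the vasodilator adrenomedullin, was the largest in MGJ at 9.20, and Ndrg1 the smallest at 0.288. In MGJ2 Mxi1 was the largest at 1.94 and Pgk1 the smallest at 0.732.

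The closest patterns over classes were sought for each gene by Pearson's r of log2(CPM + 10) over the 18 classes of MGJ, with the 13 classes of MGJ2 beside it. The points share libraries, depth and free cartilage RNA, so r is a description. P4ha2 and Plod2 were each other's nearest gene, with r of 0.989 in MGJ and 0.980 in MGJ2. Me1 and Loxl2 came next to P4ha2, and Shox2 and Col16a1 next to Plod2. Loxl2 was nearest to P4ha2 (0.982 and 0.988), then to Col6a2 and Shox2. Lox was nearest to Gpx3 (0.984 and 0.987), Lum and Pdgfrl, and Loxl1 to Scara3 (0.976 and 0.940), Dact1 and Insyn1.

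Loxl4 was nearest to Mlph (0.985 and 0.9996), Slitrk6 and Wscd2, and Loxl3 to Hoxc8 (0.977 and 0.978), Sox5 and 1810055G02Rik. Sox5 is a partner of Sox9 in cartilage. The evenly spread genes had looser neighbours. P4ha1 was nearest to Rcan1 (0.938 and 0.886), Pccb and Crtap, Plod1 to Hbegf (0.945 and 0.918), Gas2l1 and Tspan4, and Plod3 to Tceal8 (0.942 and 0.840), Acvr1 and P4hb.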

How the data were processed

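Callus cells of wild-type C57BL/6J mice were measured as 2 10x Genomics 3′ libraries. The deposited counts are UMIs per gene and barcode, not normalized. Their headers name Cell Ranger 4.0.0 as the tool the authors ran, and the labels' processing notes name GRCm38. The lowest barcode held 501 UMIs in MGJ and 500 in MGJ2, and the median barcode 5026 and 4952. The labels give neither library a day, so both stayed unassigned and no test between samples was possible. The 10 genes, the gene lists and the comparisons were chosen with earlier results of these data known.

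Barcodes with under 200 genes (371 and 70), over 20% mitochondrial UMIs (464 and 133) or a Scrublet doublet call (140, 1.04% of those tested, and 222, 2.84%) were removed. Cells of both libraries were clustered together in scanpy 1.11.5 with leidenalg 0.10.2 (2000 variable genes, 30 components, 15 neighbours, resolution 1, no batch integration), with the 10 genes and the lists, 57 genes in all, kept out. Stromal clusters were divided once more among themselves at the same resolution, a step added after the first clusters were seen. A class needs at least 3 detected markers, and class names are rebuilt and carry "-like". Clusters of hypertrophic markers were joined to the chondrocyte-like class.

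A level is the class's UMIs per 1000000 (CPM) with an exact Poisson 95% interval. A ratio of CPM carries an exact conditional binomial interval, and a share a Clopper-Pearson interval. UMIs count molecules, but cells of 1 library are not replicates, so intervals cover counting error only. Ratios were counted at 1.5-fold among genes with at least 50 UMIs over both sides. The floor given for a count of 0 is 3 counts. Scripts were tested on simulated data. All 10 genes were named, and of each list those with the largest and smallest ratios, with P4hb, Serpinh1, P4ha3, Col1a1, Vegfa and Slc2a1. For each gene the 3 closest patterns among genes with at least 500 UMIs in MGJ were named. Gene positions come from GENCODE M21, in which 99.8% of the 32285 gene identifiers matched, and promoter windows from RefSeq. Alternatives are given in the closing section.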

Additional observations from a re-analysis of the deposited data

Results flagged for a closer look

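The barcodes removed before the analysis still held transcripts of the 10 genes. In library MGJ the 975 removed barcodes summed to 1577 CPM over the 10 genes (5830 UMIs, 1536 to 1618), against 3176 CPM in kept chondrocyte-like cells and 1082 CPM in the other kept cells. In MGJ2 the 425 removed barcodes summed to 115 CPM (349 UMIs, 104 to 128), against 2655 and 126 CPM. Both are listed because they lie above the floor of 3 counts in barcodes outside the comparisons. Of these barcodes, the 140 and 222 called doublets entered the alternative that kept doublets. There are no control samples to set them against.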

How the results depend on the processing

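No paired analysis was possible because neither library has a group and no replicates exist. The median ratio of chondrocyte-like over other cells in MGJ was 3.05, and 2.94 and 2.43 at Leiden resolutions 0.5 and 2, 2.91 with at most 10% mitochondrial UMIs, 2.80 with doublets kept, 5.69 with each cell weighted equally and 3.31 without collagen UMIs in the denominator. In MGJ2 it was 33.6, and 43.4 and 29.0 at those resolutions, 64.8 with at most 10% mitochondrial UMIs and 65.0 with each cell weighted equally. Against stromal classes only, an alternative added after seeing the data, the medians were 1.48 and 1.07, with 5 genes higher and 2 lower in MGJ and 1 and 2 in MGJ2. That setting turned Plod3 (0.906) and Lox (0.502) in MGJ, and P4ha1 (0.901), Lox (0.506), Loxl1 (0.280) and Loxl3 (0.682) in MGJ2. Equal weighting turned Loxl1 in MGJ (1.41) and left 0 genes lower. The cause of these shifts was not tested.

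The median of Col10a1-high over Col10a1-low cells in MGJ was 0.651, and 0.725 or 0.536 when high began at 5000 or 20000 CPM. Counted at 2-fold, Lox and Plod3 were no longer higher and Loxl1 was no longer lower in chondrocyte-like cells of MGJ. In its Col10a1-high cells Lox and Loxl4 stayed higher, and only Loxl1 and Loxl3 stayed lower. No share over all genes is given at that fold. At resolution 2 the Lox share in chondrocyte-like cells of MGJ was 35.2% (36.2% at resolution 1). Of 380 values of single genes under these alternatives 7 turned, all named here, and 131 moved beyond their counting interval without turning. Leaving out a replicate could not be tried with 1 sample per library. Depth limited Loxl1 in MGJ2 (41 UMIs over both Col10a1 groups) and the 3 middle Col10a1 bins there, and the 50 endothelial-like cells behind its Plod1 order.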
